A study of Homo sapiens with 10 samples.

Results

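A set of 10 JAK-STAT pathway genes was followed across 4 pure blood cancer lines and 6 mixtures of them: the kinases JAK2 and JAK3, the transcription factors STAT3, STAT5A, STAT5B and STAT6, the feedback inhibitors SOCS1, SOCS2 and CISH, and the target kinase PIM1. They were chosen by name, with earlier results of these data known. Of the 10, 10 were found among the 16800 rows that carry a symbol, out of 20591 rows in all. Each of the 10 libraries is a bulk RNA library of untreated wild-type cells taken at day 0 from culture in RPMI with serum. K562 is a chronic myeloid leukaemia line with erythroid features, and SUDHL4 derives from a germinal-centre B cell lymphoma. HL60 and THP1 are acute myeloid leukaemia lines, the former promyelocytic and the latter monocytic. Each line and each mixture was sequenced once, from an established line in culture, so there is no spread between replicates and no p-value. The labels give neither the ratios of the mixtures nor which of 2 library kits was used for which library.

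Cytokine receptors of this pathway have no kinase of their own. They hold Janus kinases (JAKs), which phosphorylate STAT proteins, and paired STATs then enter the nucleus and bind DNA. Suppressors of cytokine signalling, among them SOCS1, SOCS2 and CISH, are switched on by STATs and damp the receptor that started the signal, so their transcripts are a common readout of STAT activity. K562 carries the BCR-ABL1 fusion, a tyrosine kinase known to phosphorylate STAT5 without a cytokine. The question here is how these genes, and the STAT5 feedback genes among them, were distributed over the 4 lines and carried into the mixtures.

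The unit of every level is normalised CPM, that is, counts per 1000000 mapped to genes, rescaled by the authors. The 10 libraries held 24985570 to 36607612 recovered reads, and 1 read was worth 0.0409 to 0.0594 normalised CPM. Intervals are exact 95% Poisson intervals of the reads and cover counting error only. To be called above in a line, a gene needed a level of 5 or more and a log2(value + 1) exceeding the highest of the other 3 lines by 2 or more, about 4-fold. The mirror rule, with 5 or more in each of the other lines, gave genes called below. All 6 erythroid markers were called above in K562, 5 of 5 B cell markers in SUDHL4 and 4 of 5 monocyte markers in THP1, where FCN1 had 0 reads. Of 5 markers listed for HL60, 2 were called there, the granule gene MPO and the transcription factor gene CEBPE. The other granule genes were highest in THP1, where AZU1 and ELANE were called and PRTN3 was not. Of 6 measured T and NK cell markers, 1 was called, CD3D at 14.6 in K562, where CD8A and GNLY had 0 reads. The 6 summed to 12.4 in HL60, 15.3 in K562, 5.09 in SUDHL4, 47.6 in THP1 and 18.3 to 29.2 in the mixtures. A single gene made up most of each pure line's sum: NKG7 with 44.9 in THP1 and 11.4 in HL60, CD3D in K562, and CD3E with 4.83 in SUDHL4. CD3E and CD3G had 0 reads in THP1; the markers' part in the results was not tested.

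The promoter of CISH is shown because CISH was among the genes high in K562 and its sequence holds the DNA word that paired STAT5 proteins bind, TTCNNNGAA, which reads the same on both strands. The second sequence, from PIM1, another gene high in K562, holds none. Both run 5′ to 3′ from base -250 to -101 before the RefSeq transcript start (build GRCh38.p14), with matches to the word in capitals. CISH lies on the minus strand at chr3:50611875-50612024 and PIM1 on the plus strand at chr6:37169902-37170051.
CISH: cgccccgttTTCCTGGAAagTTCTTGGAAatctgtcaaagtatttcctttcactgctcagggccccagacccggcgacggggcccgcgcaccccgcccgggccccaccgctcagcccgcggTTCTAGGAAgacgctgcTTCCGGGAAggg
PIM1: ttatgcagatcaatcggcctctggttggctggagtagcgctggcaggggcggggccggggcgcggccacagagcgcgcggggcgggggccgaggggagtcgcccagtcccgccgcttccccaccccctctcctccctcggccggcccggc

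The CISH promoter held 4 matches, TTCCTGGAA starting at base -241, TTCTTGGAA at -230, TTCTAGGAA at -129 and TTCCGGGAA at -112. They form 2 close pairs. In windows of 250 bases before the transcript start, 6.57% of 35116 RefSeq promoters held at least 1 match and 0.356% at least 2. Only 5 windows, 0.0142%, held 4 or more. Of the 10 genes, 9 had a promoter in the table, with 14 windows together, and CISH alone had a match; SOCS2 was not in the table. The word was also counted over all genes with a promoter in the table, CISH included. Among genes at 5 normalised CPM or more in K562, 20 of 538 with a match were called above there (3.72%), against 361 of 7416 with or without one (4.87%). With at least 2 matches it was 2 of 18 (11.1%), and CISH itself was 1 of these 2. The genes are too few to read an order from these shares.

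STAT5A, SOCS2, CISH and PIM1, 4 of the 10 genes, were called above in K562, out of 8 that reached 5 normalised CPM there. The background was 5.47%, or 497 of 9083 genes able to be called in K562. None was called above in HL60 (background 1.21%), SUDHL4 (4.57%) or THP1 (5.93%). CISH was called below in SUDHL4, where the background was 4.06%, and no member was called below in HL60 (1.36%), K562 (3.65%) or THP1 (0.729%). With a margin of 2-fold the counts above were 5 in K562, with STAT3 added (background 11.2%), 1 in SUDHL4, STAT6 (9.68%), and 0 in HL60 (4.33%) and THP1 (9.89%), while STAT6 was the 1 gene below in K562 (6.77%). K562 was the highest line for 8 of the 10 genes. Of the 8 genes that reached 5 in a pure line, thus without JAK3 and SOCS1, it was the highest for 7, beside 30.2% of all 11277 genes that did. The median log2 difference between K562 and the mean of the other lines was 1.92 over the 10 genes and 3.01 over those 8, beside 0.07 over the 11277. These values are descriptions, since a gene can reach 5 through the line where it is high. The genes were also chosen with earlier results of these data known. In HL60, SUDHL4 and THP1 the medians of the 10 genes were -0.88, -1.03 and -0.53.

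**Figure D1:**
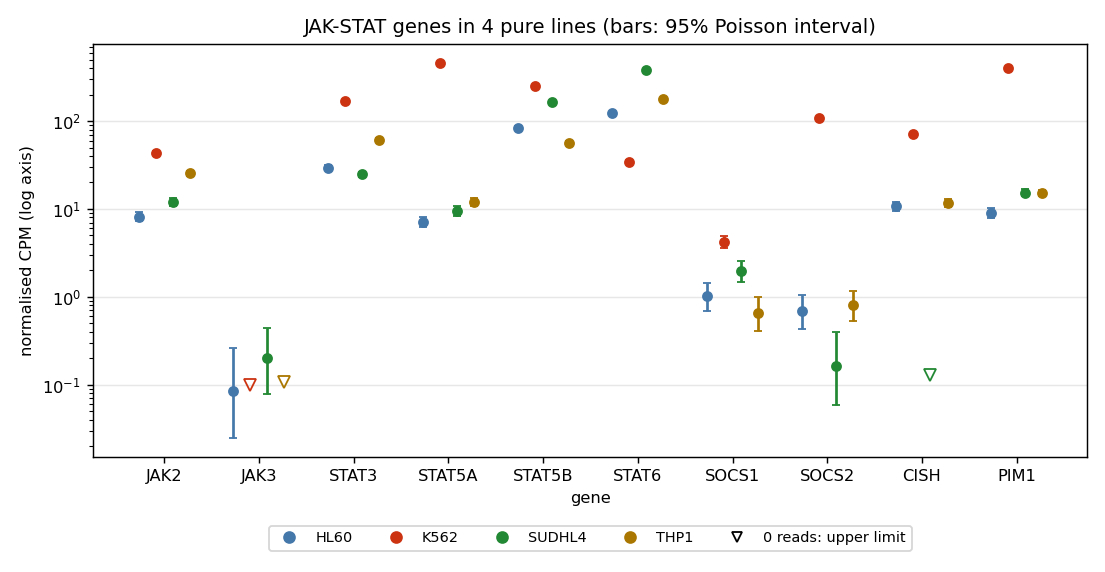
Levels of the 10 genes in the 4 pure lines, in normalised CPM on a log axis, 1 library per line. Points are levels, bars are 95% Poisson intervals of the reads, and open triangles are the upper limit of 3 reads where a library had 0 reads. K562 (red) stands far above the other lines for STAT5A, SOCS2 and PIM1, and is the lowest line for STAT6.

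Of the kinases, JAK2 signals for receptors such as those of erythropoietin and thrombopoietin (chromosome 9, 4984390 to 5128183 in GRCh38). It stood at 8.20 normalised CPM in HL60, 43.1 in K562, 11.99 in SUDHL4 and 25.3 in THP1. The 4 counting intervals did not overlap, and K562 was 1.70-fold above THP1 and 5.26-fold above HL60. JAK3, the kinase that pairs with the common gamma chain of lymphocyte cytokine receptors (chromosome 19, 17824780 to 17848071), had almost no reads. It had 5 reads in SUDHL4, 2 in HL60 and 0 in K562 and THP1, and its level was at most 0.202 in any of the 10 libraries. The annotation and counting settings are not given in the sources used here. Whether JAK3 transcripts were missing from the cells or not counted was therefore not settled. The partner receptor chain of JAK3, IL2RG, was at 184 in HL60, 88.6 in K562, 99.9 in SUDHL4 and 3.56 in THP1. Per length of exon, JAK1 and TYK2 made up most of the JAK transcripts in each pure line. The share of JAK2 in the sum of JAK1, JAK2, JAK3 and TYK2 per kb was 19.8% in K562, 12.8% in THP1, 7.41% in SUDHL4 and 5.07% in HL60.

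The STAT genes divided into those highest in K562 and STAT6, which ran the other way. STAT5A, a mediator of erythropoietin, interleukin and prolactin signals (chromosome 17, 42287547 to 42311943), was at 7.16 in HL60, 454 in K562, 9.46 in SUDHL4 and 12.1 in THP1. Thus K562 held 37.6-fold more than THP1 and 63.4-fold more than HL60, while the other 3 lines lay within a narrow band. Its close relative STAT5B (42199168 to 42276707 on the same chromosome) was at 84.2 in HL60, 251 in K562, 165 in SUDHL4 and 57.0 in THP1. K562 was also highest here, but by 1.52-fold over SUDHL4. STAT3, which carries signals of the interleukin 6 family (chromosome 17, 42313324 to 42388568), was at 29.3, 171, 24.7 and 60.6 in HL60, K562, SUDHL4 and THP1, a gap of 2.82-fold between K562 and THP1.

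The balance of the STAT5 pair differed between lines. Per kb of exon, STAT5A was 2.03 times STAT5B in K562, but 0.237 times in THP1, 0.0953 times in HL60 and 0.0643 times in SUDHL4. STAT5A thus made up 67.0% of the pair in K562 and 6.04% to 19.2% in the other lines. The summed level of the pair per kb was 118 in K562, 27.2 in SUDHL4, 14.3 in HL60 and 10.9 in THP1. Of the 50-base words in STAT5A transcripts, 8.61% also occur in STAT5B, and the sources used here do not say how reads matching both were counted, so the exact ratio is uncertain.

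STAT6 transmits interleukin 4 and 13 signals and is active in B cells (chromosome 12, 57095408 to 57132139). It was at 122 in HL60, 34.3 in K562, 382 in SUDHL4 and 176 in THP1. SUDHL4 exceeded THP1 by 2.17-fold and K562 by 11.1-fold, and no intervals overlapped, but the gap to THP1 was under the 4-fold rule. Per kb of exon, STAT6 led the sum of STAT3, STAT5A, STAT5B and STAT6 in SUDHL4 with 63.6%, in THP1 with 57.5% and in HL60 with 48.8%. In K562 it made up 3.32%, where STAT5A led with 55.6% and STAT5B followed with 27.4%. The 4 genes summed to 142 per kb in K562, 82.3 in SUDHL4, 41.9 in THP1 and 34.4 in HL60.

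**Figure D2:**
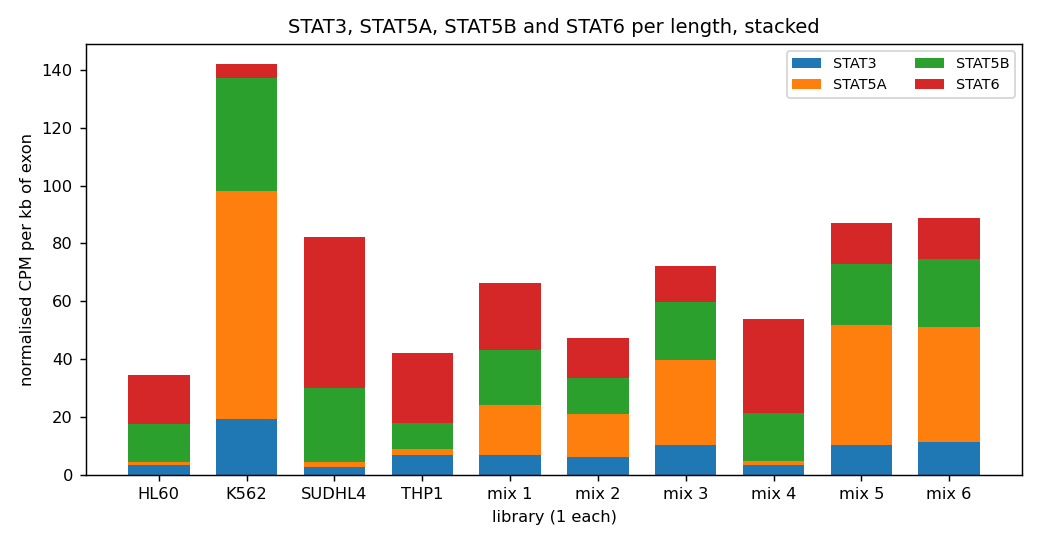
Stacked levels of STAT3, STAT5A, STAT5B and STAT6 in normalised CPM per kb of exon, for the 4 pure lines and 6 mixtures (mix 1 to 6), 1 library each. The STAT5A part is thick in K562 and in mixtures 5 and 6, and thin in mixture 4 (1.38 per kb), where the STAT6 part is the thickest of the mixtures (32.7 per kb).

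Of the feedback genes, SOCS2 and CISH were called above in K562 and SOCS1 was not. SOCS2, which limits growth hormone and STAT5 signalling (chromosome 12, 93569814 to 93583487), was at 0.687 normalised CPM in HL60, 109 in K562, 0.165 in SUDHL4 and 0.81 in THP1. The libraries of the other 3 lines held 20, 4 and 26 reads, against 3861 in K562. K562 was 135-fold above THP1 and 159-fold above HL60; the intervals of THP1 and HL60 overlapped. No 50-base word of a SOCS2 transcript occurs in the same strand of another annotated gene's transcripts, but reads of its antisense gene cannot be separated if strand was not used in counting.

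CISH, the first known member of the family and a direct STAT5 target (chromosome 3, 50606490 to 50611831), was at 10.7 in HL60, 71.1 in K562, 0 in SUDHL4 and 11.6 in THP1. K562 was 6.13-fold above THP1, and the intervals of THP1 and HL60 overlapped. With 0 reads in SUDHL4, its level there was at most 0.129 at a limit of 3 reads, and by that limit K562 was at least 553-fold higher. The upper end of its 95% interval in SUDHL4 was somewhat higher, at 0.154. SUDHL4 thus lacked detectable CISH while it expressed STAT5B at 165 and STAT6 at 382, and the myeloid lines held CISH at intermediate levels.

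SOCS1, which blocks JAK catalytic activity (chromosome 16, 11254405 to 11256200), was low everywhere. It was at 1.02 in HL60, 4.22 in K562, 1.96 in SUDHL4 and 0.657 in THP1, below the minimum of 5 for a call. K562 was 2.15-fold above SUDHL4, from 149 and 53 reads, with intervals that did not overlap; those of HL60 and THP1 did. PIM1, a kinase that promotes survival and a classic STAT target (chromosome 6, 37170203 to 37175426), was at 9.0, 397, 15.3 and 15.2 in HL60, K562, SUDHL4 and THP1. K562 exceeded SUDHL4 by 25.9-fold, and SUDHL4 and THP1 could not be told apart by their intervals. Per kb of exon, PIM1 was the most abundant of the 10 genes in K562 at 133, ahead of STAT5A at 78.8. SOCS2 was at 16.1 and CISH at 13.9 per kb. Each length is the union of all annotated exons of a gene, so this order depends on the annotation. Before the division STAT5A was ahead, at 454 against 397 for PIM1.

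The fusion partners themselves were broadly expressed. ABL1 was at 78.7 in HL60, 199.6 in K562, 98.5 in SUDHL4 and 71.2 in THP1, and BCR at 138, 88.3, 92.4 and 55.7. Gene-level values do not separate fused from normal transcripts.

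Most other pathway genes were not called in K562. Of 72 other pathway genes, BCR and ABL1 included, 59 were measured. Of the 40 at 5 or more in K562, 3 were called above there (background 5.47%): SOCS3, LIFR and PIM2. K562 was the highest line for 14 of the 59. With BCR and ABL1 left out, 48 reached 5 in a pure line, and K562 was the highest for 10 of these, beside the 30.2% of all genes. SOCS3, the inhibitor of gp130 and related receptors, was at 31.6 in K562 (1118 reads) against 1.88 in THP1, 0.218 in HL60 and 0 reads in SUDHL4. PIM2, a relative of PIM1, was at 132 in K562 and at 28.2, 20.6 and 14.2 in HL60, SUDHL4 and THP1. LIFR, the receptor of leukaemia inhibitory factor, was at 7.72 in K562 and had at most 1 read in each of the other lines. Among 15 measured inhibitors outside the 10 genes, K562 was called below for PTPN6, the phosphatase SHP-1 that removes phosphate from JAKs and receptors. PTPN6 was at 343 in HL60, 1.28 in K562, 10.2 in SUDHL4 and 143 in THP1. The receptor chain CSF2RB, shared by GM-CSF and interleukins 3 and 5, was also called below in K562, with 1 read there. HL60 had 37.3, SUDHL4 24.3 and THP1 16.2. Calls below in the other lines were IL10RA in HL60, IL2RG in THP1, and in SUDHL4 SOCS6 and IL13RA1, both with 0 reads.

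Other STAT5 targets were called in different lines. Of 9 measured, PIM2 alone was called above in K562, where 8 were able to be called (background 5.47%). MYC and CCND2 were called in HL60 (7 able, background 1.21%). BCL6, which STAT5 represses, was called in SUDHL4 (7 able, background 4.57%). These counts are too small to set the list apart from other genes. The survival gene BCL2L1 was at 216 in K562 and 58.7 in the next line, short of the rule. MYC was at 1292 in HL60 and between 187 and 194 elsewhere. The cyclin CCND2 was at 147 in HL60 and 30.6 in K562, with 6 reads in SUDHL4 and 3 in THP1. The list median in K562 was 0.82 log2 units, beside 0.07 over all genes, with 3 of 9 highest there, beside 30.2% of all genes. Of 3 measured STAT6 targets, FCER2, the low-affinity IgE receptor, was highest in SUDHL4 at 12.5, and CCL22 and IL4I1 in THP1 at 6.22 and 6.13. THP1 was the highest line for 10 of 20 measured receptors. Among the 17 that reached 5 in a pure line it was 8, beside 20.7% of all genes that did. IL6R was at 518 in THP1 and 125 in HL60. IL6R and CCL22 were called above in THP1, 2 of 44 other pathway genes able to be called there, BCR and ABL1 included (background 5.93%). None of 5 measured ligands reached 5 in a pure line. JAK1, TYK2 and STAT2 were present in all 4 lines with no call, and STAT4 was at or below 0.688.

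**Figure D3:**
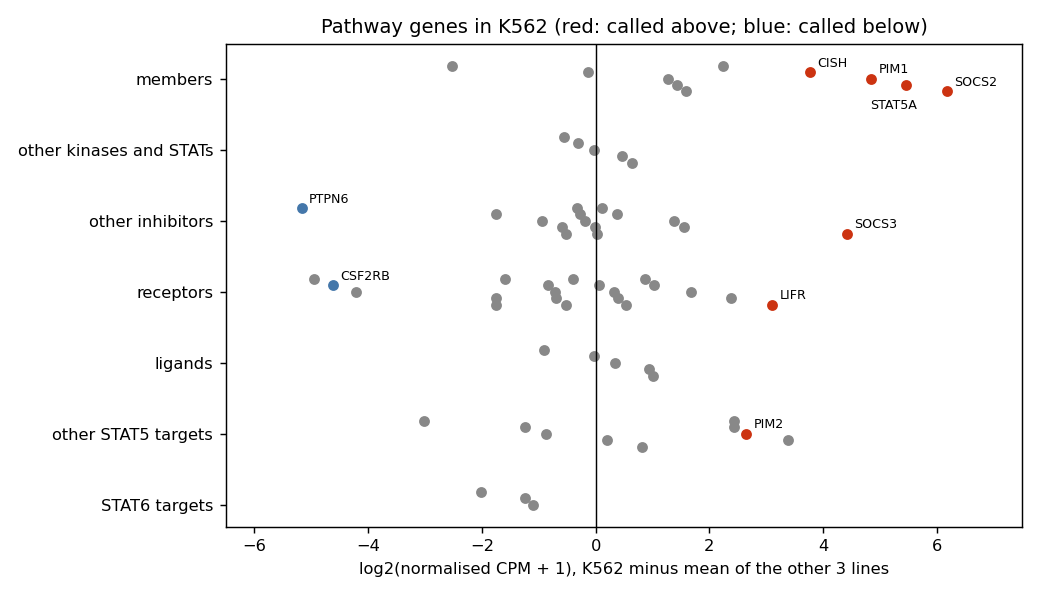
Difference in log2(normalised CPM + 1) between K562 and the mean of the other 3 pure lines, 1 point per gene, by list (vertical offsets only separate points). Red points were called above and blue points below in K562. STAT5A, SOCS2, CISH and PIM1 lie to the right, while most other pathway genes scatter around 0.

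The mixtures show whether the levels of the pure lines carried over. The coefficients of the 4 lines were fitted on 100 other genes per line, and predicted levels are the coefficients times the pure levels. In bulk samples, fewer cells of a line and less RNA per cell cannot be told apart. The K562 coefficient, as a percentage of the pure level, was 21.6% in mixture 1, 19.0% in mixture 2, 35.5% in mixture 3, 0.0262% in mixture 4, 51.1% in mixture 5 and 51.1% in mixture 6.

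SOCS2 followed these values closely. It stood at 22.7, 21.6, 39.3, 0.399, 56.6 and 49.1 normalised CPM in mixtures 1 to 6. As a percentage of pure K562 this was 20.8%, 19.9%, 36.0%, 0.366%, 51.9% and 45.0%. Mixture 4, with next to no K562, held 10 reads, and 0.435 was predicted there from the 4 lines together, with 6.56% of it from K562. In mixture 6 SOCS2 was 0.875 times its prediction. Its counting intervals in mixtures 5 (53.7 to 59.6) and 6 (46.7 to 51.5) did not overlap although the fitted K562 coefficients were nearly equal. This was not particular to SOCS2. The erythroid markers were also lower in mixture 6 than in mixture 5, such as GATA1 (129 and 150) and HBG1 (759 and 1212). PIM2 went the other way (86.1 and 81.6). Each mixture is 1 library, and the intervals cover counting error only.

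STAT5A was at 99.2, 86.1, 170, 7.96, 238 and 228 in mixtures 1 to 6. K562 supplied 92.8% to 98.0% of its predicted level in the 5 mixtures other than mixture 4. In those 5 the observed level was 0.929 to 1.02 times the prediction; in mixture 4 it was 0.82 times. PIM1 was at 94.99, 85.7, 142, 15.4, 214 and 213, between 0.962 and 1.097 times its prediction in all 6 mixtures. In mixture 4 both genes lay near their levels in HL60, SUDHL4 and THP1.

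CISH was at 24.5, 25.6, 33.6, 5.04, 49.3 and 48.9 in mixtures 1 to 6. It exceeded its prediction in 6 of 6 mixtures, by 1.07-fold to 1.22-fold. Among 8966 genes at 5 or more in all 6 mixtures, 7.47% lay above their prediction in all 6, and 9.50% had a higher median difference than the 0.23 log2 units of CISH. K562 supplied 90.2% of the predicted CISH in mixtures 5 and 6 and 63.7% in mixture 2, where HL60 and THP1 contributed more. STAT6 lay below its prediction in 6 of 6 mixtures (background 4.28%), at 0.776 to 0.990 times. Of 7 members at 5 or more in all 6 mixtures, CISH was the 1 above and STAT6 the 1 below in all 6. STAT3 and STAT5B lay below in 5 of 6, JAK2 and STAT5A in 4 of 6, and PIM1 above in 4 of 6. STAT6 was at 168, 99.2, 92.3, 239, 103 and 104 in mixtures 1 to 6, highest in mixture 4, which had the largest SUDHL4 coefficient.

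**Figure D4:**
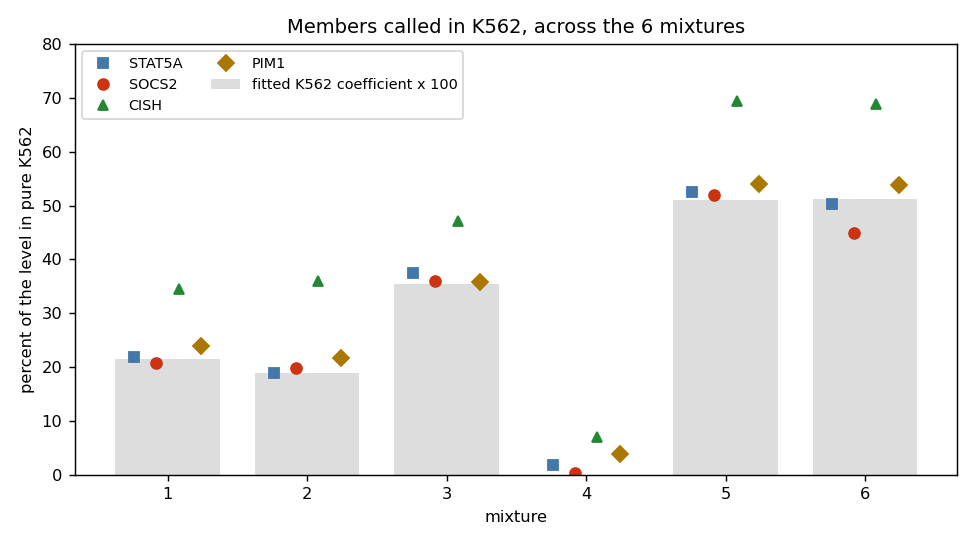
Levels of STAT5A, SOCS2, CISH and PIM1 in the 6 mixtures as a percentage of their level in pure K562 (points), beside the fitted K562 coefficient times 100 (grey bars), 1 library per mixture. STAT5A, SOCS2 and PIM1 sit near the top of the bars, CISH above them at 34.5% to 69.3% outside mixture 4, and mixture 4 has a bar too small to see.

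Across the mixtures JAK2 ran from 15.98 to 28.5, STAT3 from 31.1 to 100.3, STAT5B from 81.0 to 152 and SOCS1 from 1.76 to 4.09, and JAK3 had at most 2 reads. STAT5B in mixture 2 was 0.736 times its prediction and JAK2 in mixture 5 was 0.756 times. SOCS1 in mixture 2 was 2.03 times its prediction, from 79 reads, at a level of 3.15 that is below the minimum. Of 47 member and mixture pairs with at least 5 normalised CPM observed or predicted, 0 were off by 2-fold, beside 0.341% of 59738 pairs over all genes. By mixture the background was 0.0499%, 1.06%, 0.0916%, 0.134%, 0.561% and 0.149% for mixtures 1 to 6. The members' median absolute difference was 0.12 log2 units, beside 0.14 over all pairs. Neither value sets the members apart from the other genes.

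**Figure D5:**
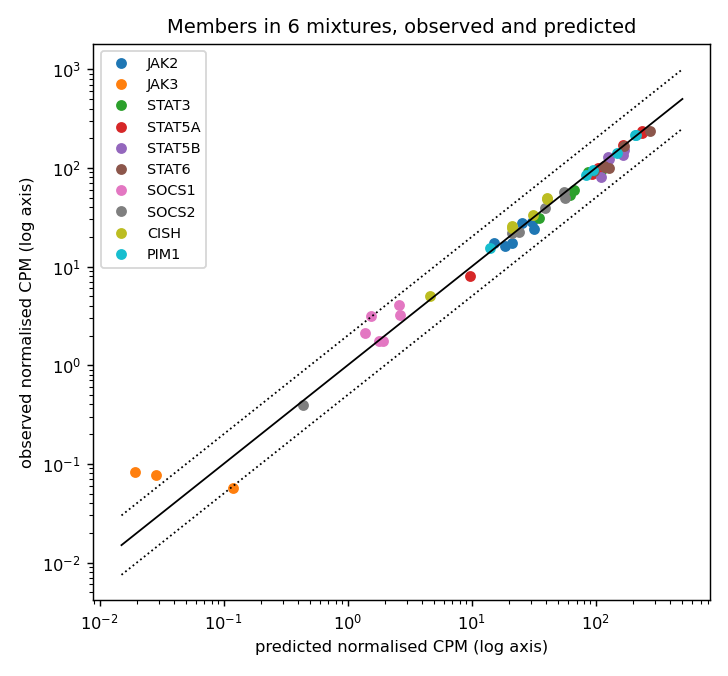
Observed against predicted levels of the 10 genes in the 6 mixtures, in normalised CPM on log axes; values with 0 reads are not drawn. The solid line marks equality and the dotted lines 2-fold. Points at 5 normalised CPM or more lie within the dotted lines; JAK3 points rest on 1 or 2 reads.

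Genes with the profile most like that of the STAT5 feedback genes were ranked by Pearson's r of log2(value + 1) over the 10 libraries, among 8599 other genes reaching 20 in a library. This is a description: the mixtures are made of the same 4 lines, so the 10 points are not independent. SOCS2 was nearest to AKR1C1 (r = 0.999), TFPI (0.999) and GMPR (0.998), each at or below 0.688 normalised CPM outside K562. CISH was nearest to MPP1 (r = 0.997), CYTOR (0.995) and PRAME (0.994), and PIM1 to RHCE (0.999), MYEOV (0.997) and NCKAP1 (0.996). Within the 10 genes, STAT5A and PIM1 had r = 0.996 and STAT5A and SOCS2 0.995, while CISH and STAT5A had 0.84.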

How the data were processed

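The members and gene lists were chosen with earlier results of these data known. The authors deposited 1 table of signal values per gene on the CPM scale; HISAT2, featureCounts and build hg19 are named per the submitters' processing notes, and annotation, strand setting and scaling method are not given in the sources used here. Each value above 0 equals a whole number of reads plus 0.5 times a constant step per column, for 100% of values within 0.01, and reads were recovered from this. The deposited scale was 0.91 to 1.11 times plain CPM. With 1 library per group no test was run. Groups came from the titles.

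Calls, list medians and predictions use a pseudocount of 1 on the log2 scale. Coefficients came from non-negative least squares over 100 signature genes per line, none of them listed genes, each divided by its highest pure level. The caller and the fit were tested on simulated data, with the mixture built as a weighted sum of the pure profiles plus counting noise. This checks the code and cannot show how the fit behaves on the real mixtures. Exon lengths and positions are from GENCODE release 29 (GRCh38), matched by Ensembl ID, and promoters from RefSeq (GRCh38.p14), where 9 of 10 members matched; hg19 coordinates were not used. Named genes are the 10 members, called pathway genes, BCR, ABL1, markers and the 3 genes most like SOCS2, CISH and PIM1; other pathway genes named (JAK1, TYK2, BCL2L1, IL4I1, FCER2, STAT2 and STAT4), and the PIM1 promoter, were chosen after their values were seen. Python 3.11.15, numpy 2.4.6, pandas 2.3.3 and scipy 1.17.1 were used. A gene of the pathway list is counted in the list but not reported here.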

Additional observations from a re-analysis of the deposited data

How the results depend on the processing

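No paired analysis was possible because each group holds 1 library, and no replicate could be left out. STAT5A, SOCS2, CISH and PIM1 were called above in K562 at minimum levels of 1 and 20, pseudocounts of 0.5 and 0.1, plain CPM and housekeeping scaling; a 2-fold margin gave 5 genes, with STAT3 added, and an 8-fold margin 3, without CISH. With a 2-fold margin STAT6 was called above in SUDHL4 (1 gene in place of 0) and below in K562 (1 in place of 0). With a minimum level of 20 the count below in SUDHL4 went from 1 to 0, because CISH is under 20 in HL60 and THP1. Coefficients fitted on every gene at 5 or more gave 1 value off by 2-fold in place of 0, STAT5A in mixture 4, with 7.96 observed and 21.6 predicted. The other 6 alternatives for the mixtures left that count at 0. No margin between the highest and second line changed sign. With housekeeping scaling each margin shrank except that of JAK3, which went from 0.15 to 0.18 log2 units. The JAK2 margin of K562 over THP1 fell from 0.75 to 0.37, and the STAT5B margin of K562 over SUDHL4 from 0.60 to 0.37. Housekeeping scaling moved the median K562 difference of all genes from 0.07 to -0.11 log2 units. The genes most like SOCS2, CISH and PIM1 were not stable: with Spearman's rho 1, 0 and 0 of the 3 leading genes remained, and over the 6 mixtures alone 0 remained for each. JAK3, SOCS1, and SOCS2 outside K562 rest on few reads, which limits their order.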

Other observations

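STAT5B, STAT5A and STAT3 are neighbours on chromosome 17, so the genes around the members high in K562 were listed, a look chosen after the values were seen. Within 500 kb of STAT5A, 12 of 26 genes at 5 normalised CPM or more in a pure line were highest in K562, beside 30.2% of all such genes. The 12 include the members STAT5B and STAT3. The median difference of the 26 from the mean of the other lines was 0.26 log2 units, against 5.45 for STAT5A itself. Of these 26 neighbours, 2 were called above in K562. The background of 5.47% counts genes at 5 or more in K562, whereas the 26 reached 5 in a pure line. CAVIN1, a coat protein of caveolae, was at 226 in K562 against at most 1.02 elsewhere, and the kinase WNK4 was at 39.5 against at most 0.312. Around CISH 0 of 14 such genes were highest in K562 (median -0.70), around PIM1 6 of 12 (0.43) and around SOCS2 2 of 4 (0.92). Around STAT6, for which K562 was the lowest line, it was 14 of 26 (0.61), and around JAK2 1 of 6 (0.10). Calls above in K562 were thus not particular to the STAT5A neighbours. They numbered 2 around STAT6 as well, 1 around PIM1 and 0 around CISH, SOCS2 and JAK2.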
